A study of Mus musculus with 6 samples.

Results

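Transcripts of 32 genes of cholesterol synthesis, uptake and efflux were measured in primary hepatocytes of alcohol-fed mice that were wild type (WT) or heterozygous for a deletion of S100a16, which encodes a calcium-binding protein of the S100 family. The 32 genes were chosen by name, and all were among the 25718 genes of the deposited expression table. Of these, 31 passed the filter on low counts, as did 15957 genes in all. There were 3 libraries from WT mice and 3 from S100a16KO+/- mice, the genotype that the sample labels call an S100A16 knockdown. The deletion was made with EIIa-Cre, which recombines floxed alleles in the early embryo, so it was carried in every tissue and was not limited to hepatocytes. Homozygous loss was lethal, and the S100a16KO+/- cells kept 1 intact allele. Per the study's methods the animals were male, 8 to 10 weeks old and on a largely C57BL/6 background. All 6 libraries came from the ethanol arm. The mice received control liquid diet for 5 days, liquid diet with 5% ethanol for 10 days and then an ethanol bolus of 5 g/kg, 9 h before collection. No library of the control-diet arm was analysed here, so the values compare genotypes under alcohol and do not measure an effect of alcohol. Nothing in the sources used here says whether each library was a separate animal, and the p-values measure the spread between these libraries, which may be technical.

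Cholesterol is built in the endoplasmic reticulum from acetyl-CoA through mevalonate, farnesyl diphosphate, squalene and lanosterol. Its synthesis and uptake are governed by SREBP-2, a membrane-bound transcription factor that the escort protein SCAP carries to the Golgi for cleavage when membrane sterol is low and that INSIG proteins hold back when sterol is high. Hepatocytes also store cholesterol as esters, secrete it into bile through the ABCG5-ABCG8 transporter, load it onto nascent HDL through ABCA1 and convert it to bile acids. The export transporters are known targets of LXR nuclear receptors, which are activated by oxysterols.

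The libraries held 67658095 to 71807834 estimated counts, of which mitochondrial genes took 17.0% to 21.1%. More genes held a count of 4 (931 to 1011 a library) than a count of 3 (495 to 561) or 5 (244 to 292), and 1 sequenced fragment was therefore taken as about 4 counts. S100a16 (chr3:90537254-90543151, plus strand, mm10) was counted at 1001, 1056 and 1107 in WT and at 433, 390 and 366 in S100a16KO+/- libraries. It was at 37.95% of its WT level (log2 fold change -1.40 ± 0.11 SE, adjusted p = 4.14e-07 by edgeR's quasi-likelihood test with Benjamini-Hochberg adjustment over all genes tested, as are all adjusted p-values below unless another tool is named). Markers of other liver cells also differed between genotypes. Summed over 10 hepatocyte markers, the level was 108000 to 118000 CPM (counts scaled to library size) in WT and 105000 to 115000 CPM in S100a16KO+/- cells. The 9 sinusoidal endothelial markers summed to 301 to 312 CPM in WT and to 442 to 461 CPM in S100a16KO+/- cells, with 8 higher and 1 lower. Stellate cell markers were higher for 5 of 9 (59.4 to 64.4 against 97.8 to 113 CPM in sum) and Kupffer cell markers for 3 of 9 (138 to 165 against 162 to 177 CPM). All 5 erythroid markers were lower (215 to 252 against 23.4 to 26.3 CPM). Cholangiocyte markers summed to 4.59 to 6.43 CPM in WT and 4.89 to 5.47 CPM in S100a16KO+/- cells, and leukocyte markers to 7.31 to 10.5 and 10.1 to 11.5 CPM. The part of these cells in the results below was not tested, and in bulk libraries fewer cells of a type and less RNA per cell cannot be told apart.

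Of the 31 cholesterol genes tested, 10 were higher and 6 were lower in S100a16KO+/- than in WT hepatocytes at an adjusted p under 0.05, and 15 were not called. Over all genes tested, 11.6% were higher and 11.2% were lower (22.8% called), which includes genes of lower count than these 31. With a mean of at least 1 CPM required, 31.3% of 11938 genes were called, and 11 cholesterol genes were higher and 6 were lower. The largest increases were those of Mvd and Fdps in the mevalonate arm, Abcg5 in biliary export and Tm7sf2 in the late sterol arm, and the largest decreases were those of Msmo1, Abca1 and Hmgcs1. Both Mvd and Fdps met the study's criterion of an unadjusted p under 0.05 with a change of at least 2-fold, which 4.52% of all genes met. Fdps lay at the limit with a 2.004-fold increase, and 1 gene met the criterion when WT library 3, S100a16KO+/- library 1 or S100a16KO+/- library 3 was left out. The CPM of the groups did not overlap for 19 of the 31 genes, against 37.9% of all genes. The median log2 fold change was 0.10 over the 31 genes and 0.01 over all genes, and the median size of the change without its sign was 0.25 for both. The genes therefore moved in both directions, with a span from -0.37 to 1.29.

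**Figure D1:**
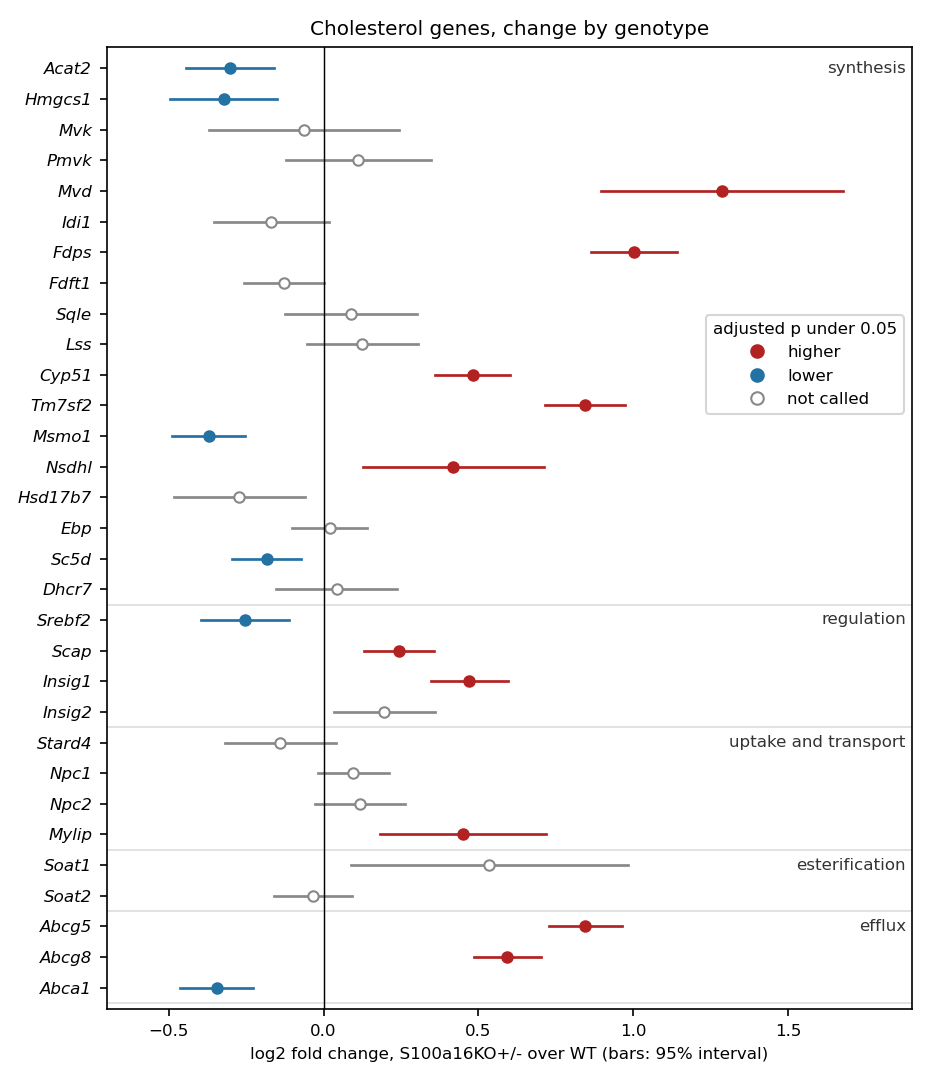
Log2 fold change (x axis) of the 31 tested cholesterol genes (y axis, grouped by role) in S100a16KO+/- over WT hepatocytes, with unadjusted 95% intervals as bars. Filled points passed an adjusted p of 0.05 (10 higher, 6 lower), open points did not, and every role but uptake and esterification held genes on both sides of 0 that passed.

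Promoter sequences are shown for 6 genes that changed, because genes of this pathway are classically read through SREBP-2 sites that lie beside CCAAT and GC boxes close to the start. Hmgcs1 and Acat2, both lower, are the cholesterol genes whose window held the SRE core searched, and 4 genes that rose stand for the mevalonate arm (Mvd), the sterol arm (Tm7sf2), regulation (Insig1) and efflux (Abcg5). Each is the RefSeq window of GRCm38.p6 from 250 bases before to 50 bases after an annotated start, 5′ to 3′ on the strand of the gene. The windows are chr13:119690101-119690400 (Hmgcs1, plus strand), chr17:12960676-12960975 (Acat2, minus), chr8:122443373-122443672 (Mvd, minus), chr19:6067801-6068100 (Tm7sf2, minus), chr5:28071162-28071461 (Insig1, plus) and chr17:84682962-84683261 (Abcg5, minus). Capitals mark matches, on either strand, to the SRE core CACCCCAC, the CCAAT box CCAAT, the GC box GGGCGG and the E-box CACGTG. No match of one motif overlapped a match of another in these windows.
Hmgcs1: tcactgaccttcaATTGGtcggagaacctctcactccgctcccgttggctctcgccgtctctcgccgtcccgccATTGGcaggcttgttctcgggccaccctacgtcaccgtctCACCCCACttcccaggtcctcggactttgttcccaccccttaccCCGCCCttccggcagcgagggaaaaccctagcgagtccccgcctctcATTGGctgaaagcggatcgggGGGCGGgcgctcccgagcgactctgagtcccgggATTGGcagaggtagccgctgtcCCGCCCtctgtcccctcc
Acat2: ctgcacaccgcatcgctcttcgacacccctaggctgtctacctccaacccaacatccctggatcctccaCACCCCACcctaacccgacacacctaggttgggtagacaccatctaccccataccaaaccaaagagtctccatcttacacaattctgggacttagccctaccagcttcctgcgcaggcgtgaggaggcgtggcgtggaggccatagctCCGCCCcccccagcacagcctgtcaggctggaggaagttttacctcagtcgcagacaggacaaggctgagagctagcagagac
Mvd: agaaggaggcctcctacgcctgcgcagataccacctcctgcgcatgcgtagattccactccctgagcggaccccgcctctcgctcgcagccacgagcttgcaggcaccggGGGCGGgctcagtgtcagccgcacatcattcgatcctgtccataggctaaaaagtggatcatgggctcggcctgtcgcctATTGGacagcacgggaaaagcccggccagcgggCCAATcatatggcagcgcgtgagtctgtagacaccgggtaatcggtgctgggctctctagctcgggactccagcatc
Tm7sf2: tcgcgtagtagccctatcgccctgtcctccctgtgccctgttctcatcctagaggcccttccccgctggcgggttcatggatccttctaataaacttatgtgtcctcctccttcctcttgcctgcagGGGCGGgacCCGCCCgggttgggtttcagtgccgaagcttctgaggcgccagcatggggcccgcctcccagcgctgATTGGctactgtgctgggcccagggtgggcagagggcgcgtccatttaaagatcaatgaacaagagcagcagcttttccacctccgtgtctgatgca
Insig1: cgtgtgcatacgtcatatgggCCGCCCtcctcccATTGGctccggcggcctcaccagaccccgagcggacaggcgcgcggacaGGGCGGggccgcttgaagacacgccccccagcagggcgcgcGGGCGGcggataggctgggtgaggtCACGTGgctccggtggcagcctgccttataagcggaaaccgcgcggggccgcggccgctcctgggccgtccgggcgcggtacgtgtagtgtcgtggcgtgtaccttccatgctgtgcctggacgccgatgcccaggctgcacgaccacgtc
Abcg5: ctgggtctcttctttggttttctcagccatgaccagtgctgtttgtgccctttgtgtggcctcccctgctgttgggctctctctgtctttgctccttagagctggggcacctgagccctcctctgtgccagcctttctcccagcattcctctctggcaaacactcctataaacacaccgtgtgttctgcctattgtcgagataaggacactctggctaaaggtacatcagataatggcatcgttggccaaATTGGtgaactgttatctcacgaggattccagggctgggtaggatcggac

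A window was at hand for 26 of the 32 genes, 33 windows in all since some genes have several starts, and not for Fdft1, Fdps, Npc1, Soat2, Sqle and Stard4. The SRE core was in 6.06% of these windows and in 2.87% of the 32851 windows of all genes. The CCAAT box was in 69.7% and 37.4%, the GC box in 75.8% and 35.7%, and the E-box in 21.2% and 7.15%, respectively. The CCAAT box was found for 8 of 9 genes that rose, 4 of 6 that fell and 10 of 10 that were not called, so windows with this motif stood in front of genes of each kind. The GC box was found for 7 of 9, 6 of 6 and 9 of 10, and the SRE core for 0 of 9, 2 of 6 and 0 of 10. These are matches of letters in a short window and do not show that a factor was bound. Nor does the lack of a match show that a site is absent. The SRE core was searched only as the exact letters CACCCCAC, which the windows of the SREBP-2 targets Insig1 and Srebf2 also lacked.

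Among the 18 genes of synthesis, 5 were higher, 4 were lower and 9 were not called, with a median log2 fold change of 0.03. The share called was 50%, beside 22.8% of all genes tested. Genes of the mevalonate arm and of the sterol arm were among both those that rose and those that fell. Acat2, the cytosolic thiolase that joins 2 acetyl-CoA, and Hmgcs1, the synthase that makes HMG-CoA, stand at its entry and both were lower. Hmgcs1 was counted at 2669, 2745 and 3089 in WT and at 2476, 1896 and 2399 in S100a16KO+/- libraries. In CPM its highest S100a16KO+/- library (35.7) lay below its lowest WT library (39.0), and the gene fell by 0.32 (log2, SE 0.08, adjusted p = 0.00976). Acat2 was counted at 2800, 2819 and 2676 against 2160, 1997 and 2536, again with no overlap in CPM, and fell by 0.30 (log2, SE 0.07, adjusted p = 0.00417). Acat2 shares 43.7% of its 31-base words with its paralog Acat3, which was also lower (-0.32), and the level of Acat2 is uncertain for that reason. Without WT library 3, the library with the highest Hmgcs1 level, the adjusted p of Hmgcs1 was 0.0662.

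The kinases of mevalonate and phosphomevalonate, Mvk and Pmvk, did not pass the test. Their log2 fold changes were -0.06 (unadjusted 95% interval -0.37 to 0.24) and 0.11 (-0.12 to 0.35). A modest change of either gene could not be told from none with 3 libraries per genotype. The CV of Mvk among WT libraries was 18.7%. Mvd, which decarboxylates mevalonate diphosphate to isopentenyl diphosphate, had the largest change of the 31 genes (chr8:122433601-122443422, minus strand, mm10). It was counted at 195, 191 and 131 in WT and at 392, 355 and 510 in S100a16KO+/- libraries. Every S100a16KO+/- library was above every WT library, and the level was 2.44-fold that of WT (log2 1.29 ± 0.18 SE, adjusted p = 0.000126). Mvd was also among the least abundant and most variable of the pathway, with a CV of 20.3% among WT libraries, and its log2 fold change ranged from 1.13 to 1.39 as single libraries were left out. Idi1, the isomerase that follows, did not pass (-0.17, interval -0.35 to 0.02, adjusted p = 0.189). Fdps, the synthase of farnesyl diphosphate and the target of nitrogen-containing bisphosphonates (chr3:89093588-89101959, minus), was counted at 1470, 1519 and 1436 in WT and at 3061, 2591 and 3164 in S100a16KO+/- libraries. The groups lay far apart, with a log2 fold change of 1.003 ± 0.065 SE (adjusted p = 5.41e-08). Of the 31-base words of Fdps, 27.9% occur in other genes, mostly in Gm43738, which the table does not list. Idi1 and Fdft1 share 18.8% and 14.3% of theirs, chiefly with Gm13502 (70 to 130 counts) and Gm6781 (0 to 10 counts).

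**Figure D2:**
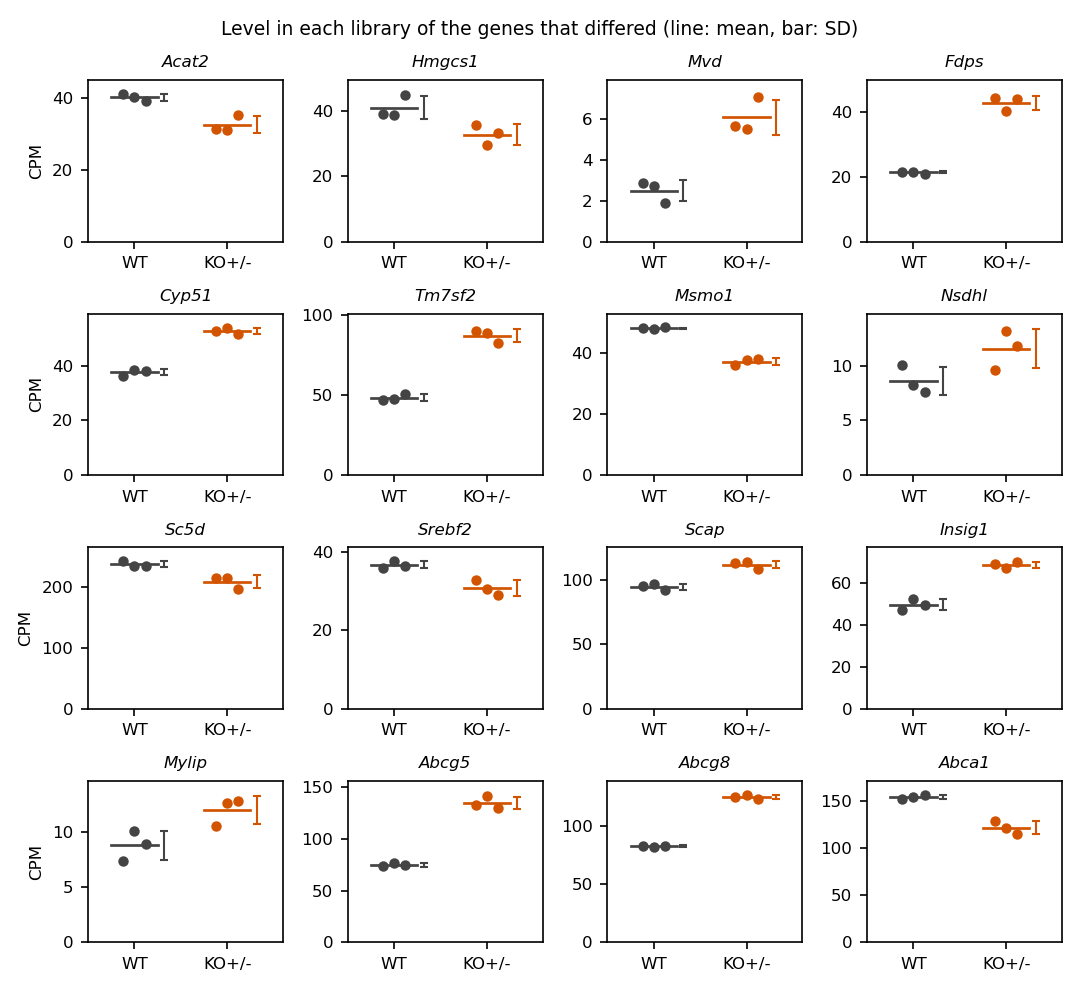
CPM (y axes, each from 0) in each library of the 16 cholesterol genes that differed, with 3 WT libraries in grey and 3 S100a16KO+/- libraries in orange, the line at the mean and the bar showing the SD. Nsdhl is the gene whose groups overlap, and the groups of the other 15 do not.

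The steps from farnesyl diphosphate to lanosterol showed no called change. Fdft1 (squalene synthase), Sqle (squalene epoxidase) and Lss (lanosterol synthase) had log2 fold changes of -0.13, 0.09 and 0.13, with unadjusted intervals between -0.26 and 0.31. Thus the 2-fold increase of Fdps just before the branch point was not seen in the committed steps of sterol synthesis, where an increase of that size lay outside the interval of each gene.

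In the late arm, which turns lanosterol into cholesterol, Cyp51, Tm7sf2 and Nsdhl were higher and Msmo1 and Sc5d were lower. Cyp51, the sterol 14-demethylase, was counted at 2482, 2709 and 2612 in WT and at 3636, 3452 and 3711 in S100a16KO+/- libraries, an increase of 0.48 on the log2 scale (SE 0.06, adjusted p = 1.99e-05). Tm7sf2, a sterol 14-reductase that acts on the product of Cyp51, was counted at 3215, 3363 and 3486 against 6258, 5713 and 5943. All S100a16KO+/- libraries exceeded all WT libraries for both genes, and the increase of Tm7sf2 was 0.84 (log2, SE 0.06, adjusted p = 1.27e-07). Vps51, which overlaps the 5′ end of Tm7sf2 by 9 bases on the same strand and shares 10.7% of its words, was at 0.29 (adjusted p = 0.0785). Msmo1, the C4-methylsterol oxidase that acts next, moved the other way. Its counts were 3281, 3366 and 3308 in WT and 2491, 2421 and 2730 in S100a16KO+/- libraries. The CV in CPM was 0.538% among WT and 2.87% among S100a16KO+/- libraries, a spread that 3 libraries per genotype measure poorly. Msmo1 fell by 0.37 (log2, SE 0.05, adjusted p = 0.000186).

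Nsdhl, the dehydrogenase that works with Msmo1 on the C4 methyl groups, was counted at 687, 582 and 519 in WT and at 667, 848 and 852 in S100a16KO+/- libraries. The ranges overlapped, since the highest WT library exceeded the lowest S100a16KO+/- library, and the gene passed narrowly at 0.42 (SE 0.14, adjusted p = 0.039). It did not pass when WT library 2 or 3 or S100a16KO+/- library 2 or 3 was left out (0.31 to 0.40, adjusted p from 0.116 to 0.155). The reductase that completes demethylation, Hsd17b7, was at -0.27 (adjusted p = 0.062) and passed without WT library 2 or S100a16KO+/- library 1 (-0.34 in both). Ebp, the sterol isomerase, was counted at 9856, 9193 and 9926 in WT and 10074, 9097 and 9998 in S100a16KO+/- libraries and was close to level (0.02, interval -0.10 to 0.14). Sc5d, the lathosterol desaturase, was counted at 16575, 16459 and 16014 in WT and 14797, 13817 and 14184 in S100a16KO+/- libraries and fell by 0.18 (SE 0.05, adjusted p = 0.0207). The decrease of Sc5d was the smallest called, and it did not pass when any WT library or S100a16KO+/- library 3 was left out (adjusted p from 0.056 to 0.0905). Dhcr7, the reductase of the final double bond, was at 0.04 (interval -0.15 to 0.24).

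**Figure D3:**
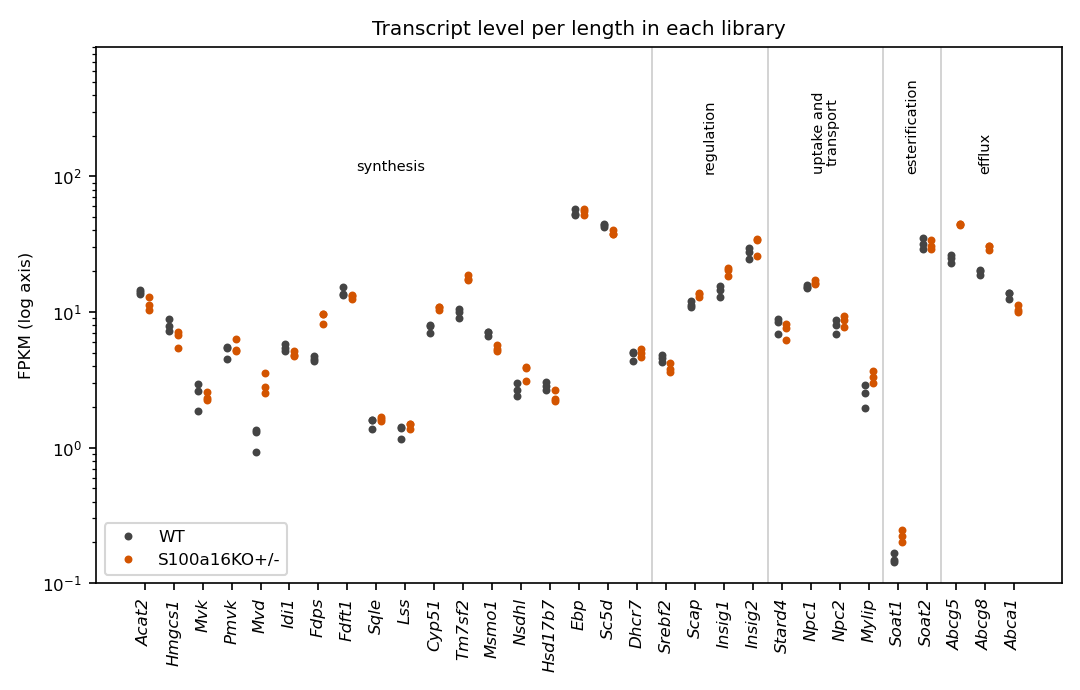
Level of each tested cholesterol gene (x axis) in FPKM on a log axis (y axis), with 3 WT libraries in grey and 3 S100a16KO+/- libraries in orange. Mean WT levels run from 0.152 for Soat1 to 54.0 for Ebp, and the differences between genotypes are small beside this span.

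Levels per length, in FPKM (fragments scaled to transcript length and library size), differed far more between genes than between genotypes. In WT cells Ebp (54.0 ± 2.60 SD, n = 3), Sc5d (43.4 ± 1.04) and Soat2 (31.9 ± 3.00) were the most abundant, and Mvd (1.19 ± 0.23), Lss (1.33 ± 0.14) and Sqle (1.52 ± 0.13) were the least abundant genes of synthesis. Mvd rose to 2.94 ± 0.54 FPKM in S100a16KO+/- cells, which is still below Hmgcs1 (6.43 ± 0.88). The median CV among replicates over the 31 genes was 5.81% in WT and 5.05% in S100a16KO+/- libraries. WT library 1 was the lowest of its group for 15 of the 31 genes, WT library 3 was the highest for 15, and S100a16KO+/- library 3 was the lowest of its group for 16.

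Of the 4 regulators of SREBP processing, Insig1 and Scap were higher, Srebf2 was lower and Insig2 was not called, with a median log2 fold change of 0.22. Insig1, an SREBP-2 target that retains SCAP in the endoplasmic reticulum, was counted at 3207, 3664 and 3387 in WT and 4779, 4302 and 5029 in S100a16KO+/- libraries. The groups did not overlap, and the increase was 0.47 (log2, SE 0.06, adjusted p = 3.55e-05). Scap was counted at 6509, 6793 and 6289 in WT and 7860, 7318 and 7813 in S100a16KO+/- libraries and was higher by 0.24 (SE 0.05, adjusted p = 0.00384). This small change exceeded the scatter, since the CV in CPM was 2.53% among WT and 2.67% among S100a16KO+/- libraries. Srebf2, which encodes SREBP-2 and is itself an SREBP-2 target, was counted at 2456, 2657 and 2498 in WT and 2281, 1959 and 2094 in S100a16KO+/- libraries. It fell by 0.25 (SE 0.07, adjusted p = 0.0124), with every S100a16KO+/- library below every WT library. Its adjusted p was 0.0583 without WT library 2 and 0.0613 without S100a16KO+/- library 3. Insig2, which is not an SREBP target in liver, was at 0.20 (interval 0.03 to 0.36, adjusted p = 0.0799), and it passed at 0.28 (adjusted p = 0.00476) without S100a16KO+/- library 2. The ratio of Insig1 to Insig2 in FPKM was 0.526 ± 0.038 (SD) in WT and 0.638 ± 0.058 in S100a16KO+/- libraries. These ratios did not overlap between groups, but an exact permutation test of 3 against 3 libraries cannot reach a p of 0.05, and none was made.

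Among the genes of uptake and intracellular transport, Mylip passed the test and Stard4, Npc1 and Npc2 did not, with a median log2 fold change of 0.11 over the 4 tested. Mylip encodes IDOL, an LXR-induced ubiquitin ligase that sends lipoprotein receptors to degradation. It was counted at 507, 709 and 612 in WT and 735, 815 and 925 in S100a16KO+/- libraries and was higher by 0.45 (log2, SE 0.13, adjusted p = 0.0181). In CPM the groups came close to each other, from 7.42 to 10.1 in WT and from 10.6 to 12.8 in S100a16KO+/- libraries, and the call was lost without WT library 1 (adjusted p = 0.0797), S100a16KO+/- library 2 (0.0556) or S100a16KO+/- library 3 (0.0801). Stard4, a cytosolic sterol carrier, was at -0.14 (interval -0.32 to 0.04). Npc1 and Npc2, which together move cholesterol out of lysosomes, were at 0.10 (interval -0.02 to 0.21) and 0.12 (-0.03 to 0.26). An increase or decrease of 2-fold lay outside the interval of each of these 3 genes. Npc1l1, the intestinal sterol importer that mouse liver hardly expresses, was listed at 0 in 5 libraries and at 11 counts in S100a16KO+/- library 1, below the 12 counts that a count of 0 allows (3 fragments, for counting error only), and was not tested.

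Esterification of cholesterol is carried out by SOAT2 in hepatocytes and by SOAT1 in many other cells, including macrophages. Soat2 was counted at 5162, 5901 and 5291 in WT and 5173, 4894 and 5781 in S100a16KO+/- libraries and was close to level (-0.04, interval -0.16 to 0.09). Soat1 was counted at 119, 127 and 107 in WT and 166, 186 and 153 in S100a16KO+/- libraries. Its groups did not overlap in CPM, but it did not pass at 0.54 (interval 0.09 to 0.98, unadjusted p = 0.0225, adjusted p = 0.0828) or under any of its 16 alternatives. The ratio of Soat2 to Soat1 in FPKM was 209.5 ± 14.3 (SD) in WT and 141.4 ± 25.2 in S100a16KO+/- libraries. The part of the other liver cells in the level of Soat1 was not tested.

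All 3 efflux transporters changed, and not in the same direction: Abcg5 and Abcg8, whose products pair to export sterols into bile, were higher, and Abca1, which passes cholesterol to apolipoprotein A-I, was lower, with a median of 0.59. Abcg5 was counted at 5016, 5408 and 5094 in WT and at 9200, 9071 and 9356 in S100a16KO+/- libraries, 1.80-fold higher (log2 0.85 ± 0.05 SE, adjusted p = 5.41e-08). Abcg8 was counted at 5687, 5806 and 5714 in WT and at 8679, 8150 and 8930 in S100a16KO+/- libraries, 1.51-fold higher (log2 0.59 ± 0.05 SE, adjusted p = 9.13e-07). For both genes the lowest S100a16KO+/- library was far above the highest WT library. Abca1 was counted at 10394, 10899 and 10718 in WT and at 8906, 7814 and 8284 in S100a16KO+/- libraries, without overlap, and fell by 0.34 (log2, SE 0.06, adjusted p = 0.000345). The ratio of Abcg5 to Abca1 in FPKM therefore went from 1.85 ± 0.04 (SD) to 4.23 ± 0.25. That of Abcg5 to Abcg8 went from 1.25 ± 0.04 to 1.48 ± 0.05, so that the 2 subunits of the transporter did not rise by the same factor, a difference that was not tested.

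Abcg5 and Abcg8 lie head to head on mouse chromosome 17, and their annotated bodies overlap by 6710 bases on opposite strands (Abcg5 at chr17:84658234-84683011, minus, and Abcg8 at chr17:84676302-84700333, plus, mm10). RefSeq gives Abcg8 2 starts. One of them lies 110 bases from the start of Abcg5, its window shares 209 bases with that of Abcg5, and the Abcg5 sequence above therefore covers much of both. The kit marked strand, but whether counting used strand is not given in the sources used here, and without it reads from the overlap cannot be assigned to one gene. Other cholesterol genes have a divergent neighbour whose start lies within 1000 bases, and these did not pass: Mmab beside Mvk (209 bases, log2 -0.29, adjusted p = 0.142), Cetn2 beside Nsdhl (146 bases, -0.50, 0.0697), Nadsyn1 beside Dhcr7 (296 bases, -0.19, 0.0883), Isca2 beside Npc2 (99 bases, -0.26, 0.124) and Gm26608 beside Insig1 (258 bases, 0.87, 0.152). 3110045C21Rik beside Hsd17b7 held at most 10 counts and was not tested. Nsdhl and Cetn2, which start 146 bases apart, thus had values of opposite sign.

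**Figure D4:**
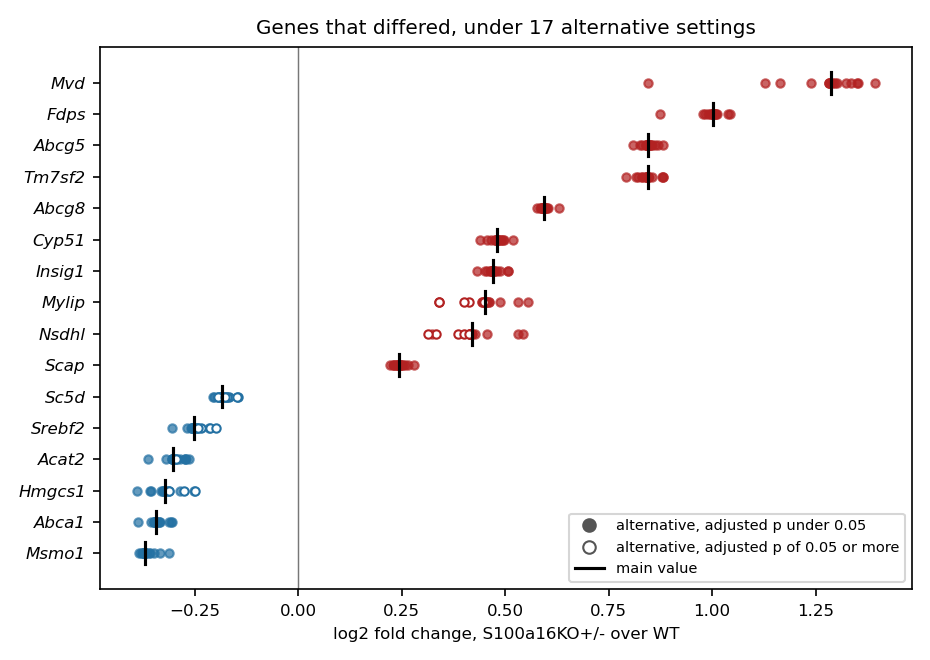
Log2 fold change (x axis) of the 16 cholesterol genes that differed (y axis) under 17 other settings, 6 of which leave out a library, with the value as reported shown as a black line and open points where the adjusted p was 0.05 or more. No gene changed sign, and 10 passed under every setting.

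Of the 16 calls, 10 passed under all 17 other settings tried: those of Mvd, Fdps, Tm7sf2, Cyp51, Msmo1, Insig1, Scap, Abcg5, Abcg8 and Abca1. Those of Nsdhl, Sc5d, Mylip, Srebf2, Hmgcs1 and Acat2 were lost under at least 1 setting.

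Genes of sterol metabolism outside the 32 were read by the same test. Of 86 listed, 84 were in the table and 83 were tested, of which 12 were higher and 26 were lower, with a median log2 fold change of -0.07. Together 45.8% were called, beside 22.8% of all genes tested (11.6% higher and 11.2% lower). The share that was higher was therefore not far above that of all genes. The count of higher genes was 6 without WT library 2 or WT library 3. Of 5 genes of acetyl-CoA supply, 2 were lower (40%, beside 11.2% of all genes tested) and none was higher. The lower genes were Acat1, the mitochondrial thiolase (-0.68, adjusted p = 1.66e-07), and Acat3 (-0.32, adjusted p = 0.00353), the paralog that shares words with Acat2. Acly (0.03), Acss2 (-0.05) and Slc25a1 (0.18) were not called. Of 4 genes that supply electrons to the sterol enzymes, Cyb5b (-0.59) and Cyb5a (-0.20) were lower and Cyb5r3 (0.27) was higher. In the non-sterol branches that use farnesyl diphosphate, 2 of 13 genes were higher, or 15.4% beside 11.6% of all genes tested. These were Nus1 (0.23, adjusted p = 0.0481), a subunit of the dolichol-forming transferase, and Icmt (0.21, adjusted p = 0.0474), which methylates prenylated proteins. Both passed narrowly, and the groups of Nus1 overlapped in CPM.

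Among 11 other genes of SREBP processing and sterol sensing, 1 was higher and 3 were lower. Their median log2 fold change was -0.055. Rnf139 (-0.46) and Erlin1 (-0.39), which take part in INSIG-linked degradation in the endoplasmic reticulum, led the 3 that were lower. Of 17 genes of intracellular sterol transport, 3 were higher and 5 were lower (47.1% called, beside 22.8% of all genes tested). The oxysterol-binding protein genes Osbpl3 (1.70, from 22 to 68 counts in WT and 134 to 189 in S100a16KO+/- libraries), Osbp (0.71) and Osbpl5 (-0.83) were at the ends. Osbpl3 was the only one of these 83 genes that reached 2-fold. Of 6 lipoprotein receptors listed, Scarb1, the HDL receptor that brings cholesterol from HDL into hepatocytes, was higher (9436 to 10044 counts against 16202 to 17056, log2 0.78, adjusted p = 4.18e-07), and Vldlr (-0.54) and Lrp1 (-0.18) were lower. Of 10 genes of LXR signalling and canalicular or HDL export, 3 were higher and 3 were lower (60% called). Abcg1, the transporter nearest in kind to Abcg5 and Abcg8, was higher (263 to 302 counts in WT and 472 to 519 in S100a16KO+/- libraries, 0.83, adjusted p = 0.000471). Of the export transporters that LXR targets, Abca1 was lower (-0.34). Lpcat3 (-0.19) and Pltp (0.10), also in this list, were not called. Nr1h2, which encodes LXR-beta, was also higher (0.31, adjusted p = 0.0257), though its groups overlapped in CPM. Nr1h3, which encodes LXR-alpha, was not called (-0.11, adjusted p = 0.242), and Rxra was lower (-0.16, adjusted p = 0.0403). Atp8b1, the canalicular phospholipid flippase, was lower as well (-0.62).

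Bile acid synthesis, the other route by which hepatocytes dispose of cholesterol, held 1 higher and 9 lower of 17 genes tested. The share called was 58.8%, beside 22.8% of all genes tested, and the median log2 fold change was -0.20. Cyp7a1, the rate-limiting enzyme of the classical pathway, was counted at 16087 to 16725 in WT and at 9705 to 10535 in S100a16KO+/- libraries (-0.69, adjusted p = 6.12e-07). Nr0b2, which encodes the repressor SHP that acts on Cyp7a1, was lower as well (-0.94, adjusted p = 9.9e-08), as was Acox2 of side-chain oxidation (-0.63). Of the 11 tested genes of SREBP-1 lipogenesis, the sister programme that makes fatty acids, 4 were higher and 5 were lower (81.8% called). Its largest changes were decreases, of Fasn (-1.57), Thrsp (-1.13) and Srebf1 (-0.89), beyond the largest decrease among the cholesterol genes (-0.37).

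**Figure D5:**
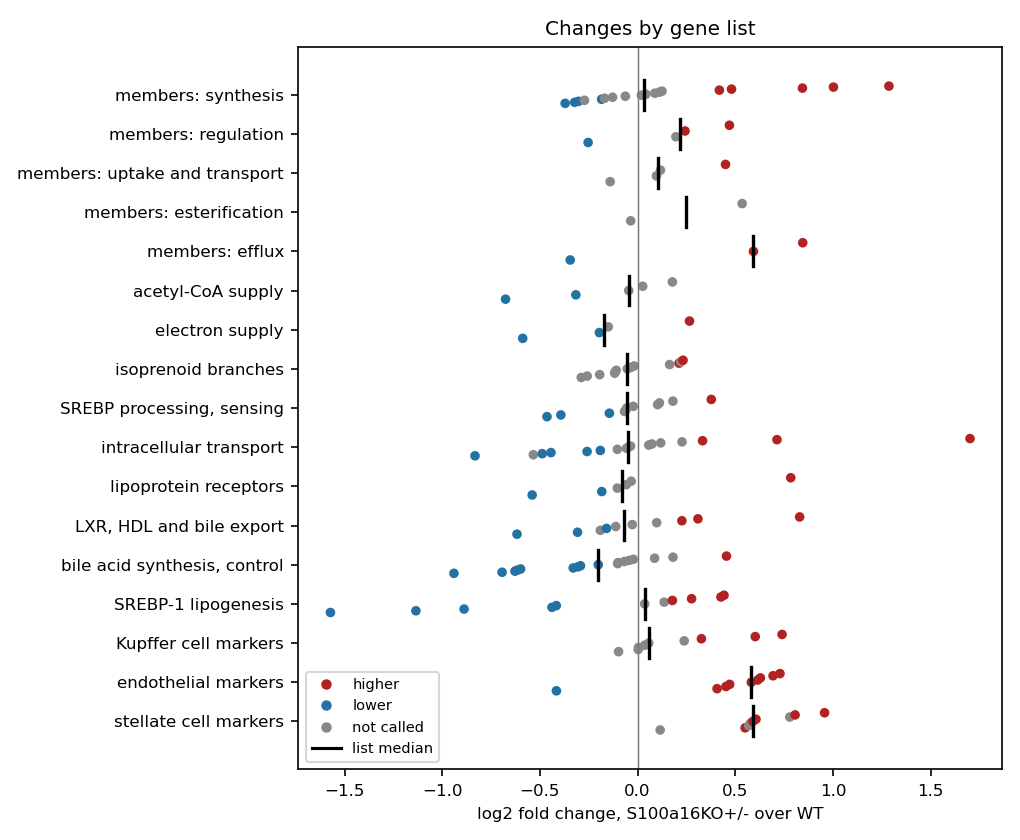
Log2 fold change (x axis) of each tested gene in the 5 roles of the cholesterol genes, in the other sterol lists, in SREBP-1 lipogenesis and in markers of other liver cells (y axis), with the list median as a black line and points in red (higher), blue (lower) or grey (not called). Synthesis spans both sides of 0 with a median of 0.03, bile acid genes lie mostly to the left and endothelial markers mostly to the right.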

How the data were processed

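RNA sequencing was read in 6 libraries of primary hepatocytes, 3 per genotype, grouped by the sample titles. The cells were isolated by collagenase perfusion and a Percoll step, and poly(A) RNA was made into strand-specific paired libraries with molecular identifiers. Per the submitters' processing notes, cutadapt 1.9, HISAT2 2.0.4, UMI-tools, StringTie 1.3.4d, DESeq2, edgeR and build mm10 were used. The deposited table held estimated counts per gene and FPKM values computed by the authors. Both were used, and 0 columns were left unassigned.

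The estimated counts were whole numbers as deposited. They were scaled by TMM and tested with edgeR 4.0.16 (quasi-likelihood, genotype as the only term, filterByExpr, two-sided, Benjamini-Hochberg over 15957 genes) in R 4.3.3. Alternatives used DESeq2 1.42.0 and limma 3.58.1. Replicate numbers were not used as pairs. The deviations of same-numbered libraries correlated at -0.047, -0.024 and 0.052, which cannot exclude that such libraries were handled together. FPKM served to compare levels between genes. The fitting steps were tested on simulated data. The deposited coordinates equalled those of a GENCODE M21 gene for 30 of the 32 genes. Shared words were 31 bases long.

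The 32 genes and all lists were chosen with earlier results of these data known. Acat2 was moved from esterification to synthesis after its values were seen, because the symbol names the cytosolic thiolase. All 32 genes were described, with at most 3 called genes of the largest change from each other sterol list and divergent neighbours within 1000 bases. Nr1h3, Rxra, Lpcat3, Pltp, Acly, Acss2 and Slc25a1 were named besides, outside this rule. A gene that this rule names is not reported here. Lists were described by counts and medians and were not tested.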

Additional observations from a re-analysis of the deposited data

How the results depend on the processing

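With 3 libraries per genotype and about 4 counts per fragment, low genes such as Mvd and Soat1 were the least precise, and whether the libraries are separate animals was not stated. The same-numbered libraries showed little shared deviation, which does not exclude a pairing. With the labels' number as a replicate block, 9 of the cholesterol genes were higher and 5 lower, 2 were past 2-fold, and 8 of the other sterol genes were higher and 23 lower. The block ended the calls of Nsdhl and Sc5d and changed no other call of a cholesterol gene. The count past 2-fold was 1 with median-ratio size factors, without a low-count filter, with DESeq2 and with limma on log2(FPKM + 0.1), 0 with limma on log2(FPKM + 1), and 1 to 2 as libraries were left out. The 2 limma fits on FPKM called 3 (pseudocount of 1) and 2 (0.1) cholesterol genes lower, and 15 and 16 other sterol genes lower. The count of other sterol genes that were higher ranged from 6 to 12 as libraries were left out. Upper-quartile scaling ended the call of Sc5d, DESeq2 that of Nsdhl, and limma on log2(FPKM + 0.1) that of Acat2 among others. Changes of sign occurred only among genes that were not called. Soat2 was at 0.002 with upper-quartile scaling, and as libraries were left out the log2 fold changes ranged from -0.066 to 0.010 for Soat2, from -0.029 to 0.045 for Ebp, from -0.201 to 0.064 for Mvk and from -0.050 to 0.108 for Dhcr7. The cause of these differences was not tested.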
